A study of Scomber scombrus with 32 samples.

Results

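The 100 genes described here varied least among the abundantly expressed genes of 2 muscle cell lines of the Atlantic mackerel (Scomber scombrus), and are candidate reference genes for expression measurements in these lines. They were chosen by measured values. Of 24189 genes counted, 2106 had a mean normalised count of at least 1000 in each of 10 groups of libraries. For each of the 2106 the range was taken as the highest minus the lowest log2(group mean + 1) over the 10 groups. The 100 genes with the smallest range became the members, 4.75% of the genes ranked. Because the group means chose them, their ranges and their differences between groups are given as descriptions. Counts of members past the threshold of a main test are printed beside the share of all genes past it. Counts under other settings or with libraries left out stand without that share. Nothing is read from either. The spread between replicates, gene function and gene neighbours were not used by the rule. That spread is still not independent of the rule, since it enters the group means. Gene lists and roles were set with earlier results of these data known. Libraries kept out of the choice stand apart from it only in part, since most are replicates of the groups that chose.

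RNA of the lines Mack1 and Mack2 was sequenced in 32 libraries. The 24 Mack1 libraries form 8 groups of 3, in which pre-immortalization cells (p27) and post-immortalization cells (p77) were each sampled in 4 states: dividing, starved of serum, on reduced serum, and loaded with lipid. The 8 Mack2 libraries form 2 groups of 4 from cultures sampled in proliferation, p2 before and p180 after immortalization. Replicate 1 of p180 is labelled a muscle satellite cell and the other Mack2 libraries a muscle stem cell, and it was kept in its group. Proliferating cells of both lines grew in L-15 medium with 20% fetal bovine serum and FGF2, a growth factor. Starved cultures were left unfed once confluent, and serum-reduced cultures were fed 2.5% serum after confluence. Lipid-loaded cultures were fed, after confluence, the growth medium supplemented with a lipid mixture, insulin, the glucocorticoid dexamethasone and IBMX, an inhibitor of cyclic AMP breakdown. The replicates are called experimental and are not stated to be separate cultures, so the spread between them may be technical. All Mack1 libraries carry batch label 1 and the Mack2 libraries batch label 2, apart from Mack2 p2 replicate 4, which carries 1, so line and batch can hardly be told apart.

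A reference gene is one whose RNA is taken to stay level, so that other genes can be scaled to it. Cytoskeletal actins, the glycolytic enzyme GAPDH and ribosomal proteins are customary choices. Muscle precursors leave the cell cycle, fuse and fill with contractile protein when they differentiate, which remodels the cytoskeleton and metabolism to which several of these genes belong. In the present cultures the mean normalised count of myog, which drives the step to differentiated muscle cells, ran from 3.7 in proliferating Mack1 p77 cells to 9143 in starved Mack1 p27 cells, and that of desma, a muscle intermediate filament, ran from 36.4 to 151034. Myod1, a factor that commits cells to muscle, was present in each group at 451.8 to 2468. Other muscle precursor genes were not, since myf5 was at 0 in proliferating Mack1 cells and in Mack2 p180. Myf6 was at 1.9 or less in each group. Of the fibroblast genes listed, col1a1a ran from 26105 to 224055 and col1a2 from 63472 to 313173, while thy1 and tcf21 were at 1.005 or less. These markers do not show the cultures to be muscle cells alone. Pax7a, which marks satellite cells, was at 834.4 in Mack2 p180 and at 0 in 3 groups of Mack1 p77. Both Mack2 groups were sampled in proliferation, yet myog was at 4312 in p2 and 1472 in p180, against 41.6 or less in proliferating Mack1. Ckma, a muscle creatine kinase, was at 66795 and 8699, against 199.7 or less. Line and degree of differentiation thus cannot be told apart where Mack2 is set beside proliferating Mack1. In these bulk libraries fewer cells of a kind and less RNA per cell cannot be told apart. The steady genes were thus measured against a background in which muscle genes differed widely between groups.

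Total counts were 16.9 to 32.01 M per library. The members together held 1.22% to 1.53% of the counts, and the smallest raw count of a member in any library was 636, so counting error was small: its median SD for the members was 0.033 on the log2 scale. One library stood apart. In Mack1 p77 serum starvation replicate 1, the SD of the members' log2 deviations from the other replicates was 0.386, against 0.210 or less in the other 31 libraries. It held the lowest value over the 32 libraries for 24 members and the highest for 15, whereas any other library held an extreme for at most 10. Of the 2106 genes ranked, 296 had their lowest and 157 their highest value in that library. Several results are given with and without it.

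Across groups, the ranges of the members ran from 0.20 to 0.54 on the log2 scale with a median of 0.44, a 1.36-fold difference between the highest and the lowest group mean. Over the 2106 genes the median range was 1.19, a 2.27-fold difference, and the widest was 6.999. The cut is not a natural break. The last members were tbc1d23 at 0.53, nap1l4a at 0.54 and u2surp at 0.54, and the first genes past it were tollip at 0.54, eif4g1a at 0.55 and gapvd1 at 0.55.

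**Figure D1:**
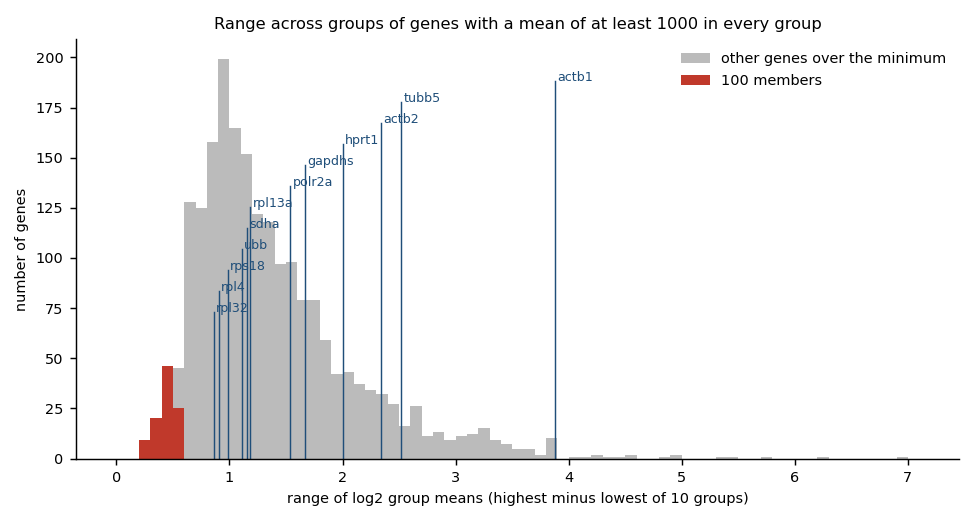
Number of genes (vertical axis) by range of log2 group means over the 10 groups (horizontal axis) for genes with a mean of at least 1000 in each group. The 100 members (red) and the other genes (grey) are drawn from the same base line, and blue lines mark customary reference genes, from rpl32 at 0.86 to actb1 at 3.88, all of which lie to the right of the members.

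Libraries kept out of the choice also gave narrow ranges. They belong to the same groups as the libraries used, and replicates may be technical, so their ranges are no independent support. When the 100 steadiest genes were chosen without the libraries of replicate number 1, their median range over the 10 libraries with that number was 0.57, against 1.31 for the genes ranked but not chosen. Chosen without number 2, they had a median of 0.50 in the libraries with number 2, against 1.29. Chosen without number 3, they had a median of 0.51 in the libraries with number 3, against 1.25. Of each such 100, 98, 100 and 100 fell under the median of the genes not chosen. The widest range in libraries kept out was 1.63, for atp5md in the libraries with number 1, which include the library that stood apart. In the libraries with numbers 2 and 3 it was 0.85 for chd9 and 0.77 for LOC133991655.

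Genes steadiest in Mack1 alone were also looked at in Mack2. The 100 genes with the smallest range over the 8 Mack1 groups alone included 57 of the members. These 8 groups are among the 10 that chose the members, so the overlap is partly built in. Between Mack2 p2 and p180, which that choice did not use, these 100 genes had a median absolute log2 difference of 0.22, against 0.34 for the 2122 others ranked. Of the 100, 69 lay under the median of the others. The p2 and p180 libraries did not overlap for 70 of the 100, and the share among the others is not given. One of the 100 differed at least 2-fold, compared with 9.57% of the others. None of these differences from the others was tested. That gene, LOC134004415, had a mean of 14596 ± 61.7 in Mack2 p2 and 4822 ± 213 in Mack2 p180 (SD, n = 4 each), although its Mack1 group means lay between 9010 and 10836. The next largest difference was in snap29, a membrane fusion protein, with 1794 ± 59.98 and 913.9 ± 68.2.

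Among the members, 11 were grouped under ubiquitin and protein turnover, with ubl5 placed there as a ubiquitin-like protein, and their median range was 0.41. Ubl5, a ubiquitin-like protein known in yeast as Hub1 to bind splicing factors, had the smallest range of all genes ranked, 0.20. In Mack1 p27 its normalised counts were 1434, 1027 and 1281 in proliferation, 1202, 1297 and 1468 in starvation, 1356, 1410 and 1338 in reduction, and 1303, 1148 and 1225 in lipid loading. In Mack1 p77 they were 1334, 1330 and 1568, then 967, 1427 and 1372, then 1280, 1437 and 1519, and 1385, 1077 and 1488 in the same order. Mack2 p2 had 1248, 1249, 1188 and 1256, and Mack2 p180 had 1174, 1357, 1435 and 1371. Most Mack1 groups overlapped each other, though the serum-reduced p27 and the proliferating p77 libraries lay above the lipid-loaded p27 ones, and the pooled SD between replicates of ubl5, 0.17, was nearly as large as its range.

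Otud5a, a deubiquitinating enzyme, held rank 2 with a range of 0.23 and a smaller SD of 0.093. Its counts in Mack1 p27 were 1233, 1241 and 1074 in proliferation, 1185, 1009 and 1144 in starvation, 1197, 1131 and 1214 in reduction, and 1294, 1239 and 1151 in lipid loading. Mack1 p77 gave 1198, 1180 and 1133, then 1312, 1182 and 1070, then 1142, 1022 and 1125, and 1137, 1204 and 1215. The Mack2 p2 libraries, at 1259, 1265, 1256 and 1356, all lay above those of Mack2 p180, at 1142, 1188, 1197 and 1009. Eloca, an elongin C, which serves both a transcription elongation complex and ubiquitin ligases, ranged from a group mean of 1715 in p27 lipid loading to 2072 in p77 serum reduction, a 1.21-fold span.

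**Figure D2:**
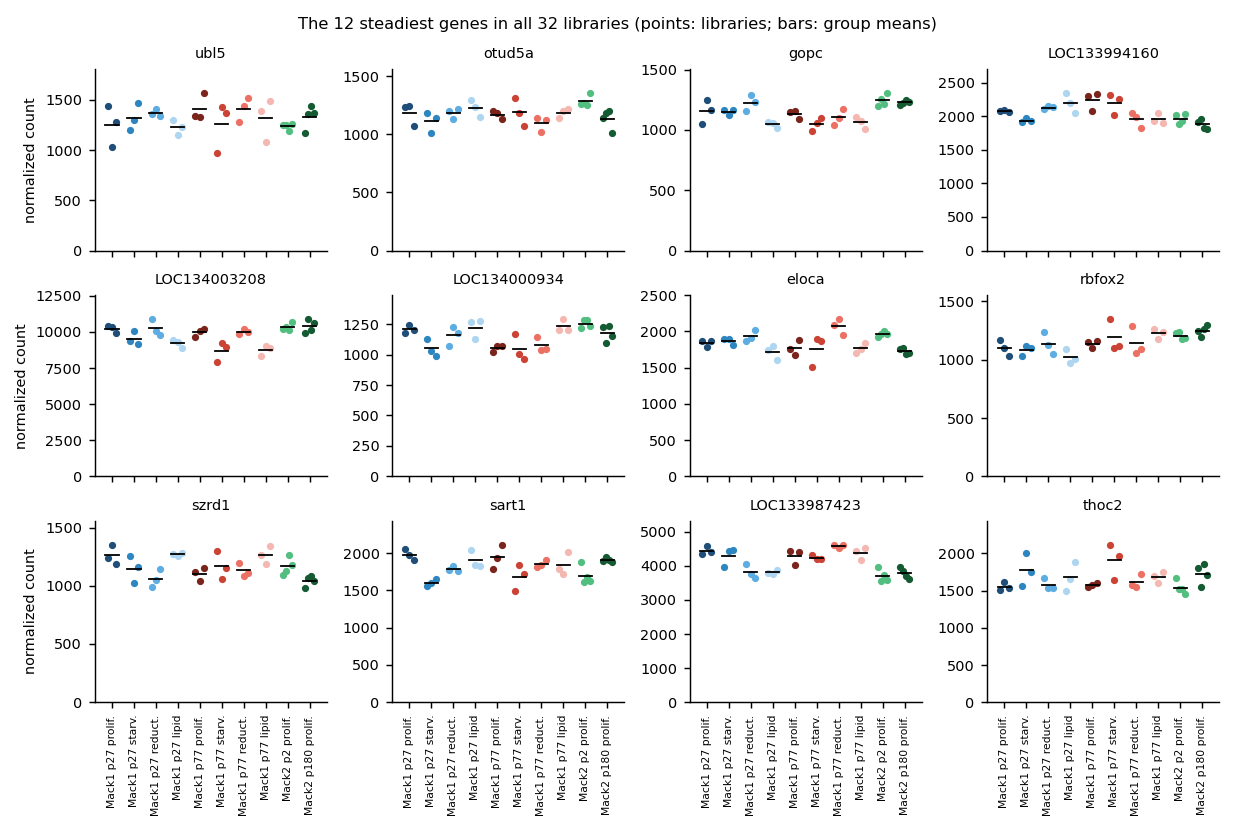
Normalised count (vertical axes, from 0) of the 12 genes with the smallest range in each of 32 libraries, by group. Points are libraries and bars are group means; within most panels the groups share one band. The lowest point of ubl5, 967, is the starved Mack1 p77 library that stood apart.

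The proteasome, the complex that degrades ubiquitin-tagged proteins, was represented by psmd12 and psmd7, both subunits of its lid. Psmd12 had counts of 4078, 4013 and 4447 in proliferating p27 cells, 3501, 3403 and 3490 in starvation, 4058, 4160 and 4518 in reduction, and 3620, 3324 and 3695 in lipid loading. In p77 cells it had 4281, 4360 and 4498, then 3108, 3575 and 3698, then 4029, 4178 and 3982, and 3490, 3608 and 3934. At both stages the starved and lipid-loaded libraries lay below the proliferating ones without overlap, a small shared pattern inside a 1.27-fold span. Mack2 sat with proliferating Mack1, at 4173 to 4377 in p2 and 4177 to 4223 in p180. Of 30 proteasome genes ranked, these were the 2 members, or 6.67% beside 4.75% of all genes ranked. The median range of the list was 0.88.

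Cops3, a subunit of the COP9 signalosome, and eif3f, a subunit of the translation initiation factor eIF3, come from complexes related in build to the proteasome lid, and both were members, with ranges of 0.42 and 0.52. Arih1 and arih2, ubiquitin ligases of one family, had ranges of 0.49 and 0.38. Cdc27, a subunit of the anaphase-promoting complex that times cell division, had a range of 0.47 over the 10 groups. Ube2g2, a ubiquitin-conjugating enzyme of the endoplasmic reticulum, and apeh, an enzyme that trims acylated peptides, were both low in 1 group: ube2g2 had 1584 ± 47.3 in Mack2 p180 against 2229 ± 78.0 in Mack2 p2 (SD, n = 4 each), and apeh had 1222 ± 34.2 against 1634 ± 43.0.

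Splicing and mRNA export gave 12 members with a median range of 0.46. Rbfox2 regulates alternative exons in muscle and brain, and its group means lay between 1023 and 1249. Sart1, a protein of the spliceosome's tri-snRNP, had 2053, 1972 and 1911 in proliferating p27 libraries and 1555, 1601 and 1649 in starved ones, which set its lowest and highest group means. In p77 cells these values were 1790, 1931 and 2113 against 1488, 1840 and 1716, and there the groups overlapped. Thoc2, of the THO complex that couples transcription to mRNA export, and sugp1, a splicing factor with a G-patch domain, were instead highest in starved cells, with group mean maxima of 1911 and 1337 and minima of 1542 and 1072.

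Snrnp200, the helicase that unwinds the U4/U6 pairing during spliceosome activation, stood near the cut with a range of 0.53, set between the Mack2 groups. It had 3950, 4532, 4401 and 4489 in p2 and 6122, 6058, 6533 and 6450 in p180. These do not overlap. Prpf4bb, a splicing kinase, and snw1, a spliceosome protein that also acts in transcription, were likewise highest in Mack2 p180, at 1530 ± 55.0 and 2519 ± 81.0, while their 8 Mack1 group means ran from 1057 to 1174 and from 1750 to 2161. Tardbpa, an RNA-binding protein of the TDP-43 family, had a range of 0.45.

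RNA helicases, mRNA decay factors and other RNA-binding proteins supplied 10 members, with a median range of 0.44. In a list of mRNA decay and helicase genes, 8 of 41 ranked genes were members, or 19.5% beside 4.75% of all genes ranked, and the median range of the 41 was 0.84. This was the highest share of any list looked at. The next was 10.8% for chromatin regulators, and several lists, such as actin cytoskeleton and adhesion, held 0 members. The list was drawn up with earlier results of these data known and the share carries no test. Ddx3xa, a DEAD-box helicase that helps translation start, had a range of 0.37. Its counts in p27 cells were 14691, 14068 and 14527 in proliferation, 13878, 14476 and 13786 in starvation, 13425, 12826 and 12456 in reduction, and 11113, 11418 and 12165 in lipid loading. In p77 cells it had 12749, 12779 and 13113, then 15248, 13035 and 13011, then 13493, 12533 and 13513, and 12634, 11740 and 11905. Mack2 gave 14276, 14911, 14419 and 14761 in p2 and 15125, 14738, 15074 and 14643 in p180. Lipid-loaded libraries were thus the lowest at p27, below the other p27 libraries without overlap.

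Cnot1 and cnot3a are parts of the CCR4-NOT complex, which shortens poly(A) tails and so starts mRNA decay, and their ranges were 0.43 and 0.44. Smg1, a kinase of nonsense-mediated decay, had 0.51, and ythdf2, which binds methylated adenosines and leads mRNAs to decay, had 0.48. Ddx61 had 4513, 5400 and 4982 in proliferating p27 libraries and 3582, 3500 and 3344 in serum-reduced ones. At p77 it had 4690, 4720 and 4759 against 3605, 3549 and 3335. The groups did not overlap at either stage, with reduction below.

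Translation added 6 members, with ranges between 0.44 and 0.53. Bzw1a, a regulator of start codon choice, had one of the 3 smallest SDs between replicates, 0.045, yet its lipid-loaded p77 libraries at 12550, 12252 and 12920 lay above its Mack2 p180 libraries at 9493, 9601, 8948 and 8930. Abcf1, which acts in translation initiation, had 5236 ± 99.0 in proliferating p27 cells and 3778 ± 146 in lipid-loaded p27 cells (SD, n = 3 each). Eif4g2b and eif4g3a belong to the eIF4G scaffold family, with ranges of 0.53 and 0.50. None of 74 ribosomal protein genes ranked was a member, beside 4.75% of all genes ranked. The steadiest, rpl14, held rank 359, and their median range was 1.14, close to the 1.19 of all genes ranked.

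Membrane traffic gave 11 members, with a median range of 0.46. Gopc, a Golgi protein that steers membrane proteins, held rank 3 at 0.25. In p27 cells it had 1049, 1247 and 1165 in proliferation, 1165, 1125 and 1164 in starvation, 1157, 1285 and 1228 in reduction, and 1067, 1060 and 1014 in lipid loading. The p77 values were 1144, 1156 and 1092, then 994, 1054 and 1098, then 1040, 1102 and 1174, and 1104, 1074 and 1009. Mack2 had 1198, 1259, 1218 and 1306 in p2 and 1204, 1225, 1251 and 1231 in p180. Both Mack2 groups overlapped proliferating p27 cells and lay above proliferating p77 cells.

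Chmp1b, vps4b, vta1 and vps37c all act in the ESCRT pathway, which pinches membranes off in endosomes and at the end of cell division. Chmp1b belongs to the filament-forming proteins, vps4b is the ATPase that takes filaments apart, vta1 is its cofactor, and vps37c belongs to the early ESCRT-I complex. Chmp1b, vps4b and vta1 had ranges of 0.42, 0.42 and 0.45. Vps37c, at 0.52, had 1382, 1787 and 1591 in proliferating p27 cells against 1166, 1056 and 1150 in lipid loading, and 1604, 1602 and 1517 in proliferating p77 cells against 1056, 1134 and 1126 in serum reduction. In starved p77 cells it had 1891 in the library that stood apart and 1207 and 1143 in the others. Tbc1d23, a Golgi protein that captures vesicles, had 1510, 1681, 1529 and 1481 in Mack2 p2 and 1104, 1090, 1072 and 1079 in Mack2 p180.

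Of the 6 mitochondrial members, rhot2, a GTPase that moves mitochondria along microtubules, was the steadiest at 0.34, with group means from 1066 to 1352. The median SD between replicates of the 6, 0.13, was above the 0.093 of all members. Atp5l, a small subunit of ATP synthase, had the largest SD of the 100, 0.29, which became 0.14 without the library that stood apart. It had 1358 there and 3654 and 3775 in the other starved p77 libraries, while its remaining libraries lay between 2841 and 4634. Romo1, a small inner-membrane protein, had 778.4 there against 1424 and 1480, and tomm6, a small subunit of the import pore, had 762.8 against 1280 and 1214. Agpat3, an acyltransferase of phospholipid synthesis, departed in the other direction, with 2398 there against 1237 and 1117.

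Kinases and growth signalling gave 6 members. Csnk2b, the regulatory subunit of casein kinase 2, had a range of 0.36 and a small SD of 0.048. Its p27 counts were 4809, 4632 and 4569 in proliferation, 4237, 4088 and 4294 in starvation, 3716, 4073 and 4129 in reduction, and 3707, 3669 and 3568 in lipid loading. The p77 counts were 4382, 4219 and 4410, then 4006, 4248 and 4234, then 4543, 4297 and 4198, and 3794, 3823 and 3906. Lipid-loaded libraries were low at both stages, below the proliferating ones without overlap. Mack2 had 3816, 3957, 3631 and 3870 in p2 and 4191, 4534, 4337 and 4278 in p180, which do not overlap either.

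Mtor, the kinase that couples nutrients to growth, and rraga, a GTPase that brings it to the lysosome, were members with ranges of 0.53 and 0.40. Mtor had 2286, 2072 and 2146 in serum-reduced p77 cells and 1686, 1912 and 1672 in proliferating p77 cells. Starved p77 libraries had 2512, 1792 and 1758, the first being the library that stood apart. Rraga had 1555, 1539, 1693 and 1523 in Mack2 p2 and 1156, 1221, 1197 and 1192 in Mack2 p180. Yes1, a Src family kinase, had a range of 0.34, and its group means ran from 1367 in p27 lipid loading to 1726 in p27 serum reduction.

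Chromatin, transcription and DNA repair gave 8 members, the steadiest being chd8, a chromatin remodeller, at 0.44. Setd2, which methylates histone H3 along transcribed genes, had 1713, 1639 and 1710 in lipid-loaded p27 libraries against 1071, 1418 and 1167 in proliferating ones. Apex1, an endonuclease of base excision repair, had 3553, 2858 and 3289 in starved p27 libraries against 2363, 2126 and 2277 in proliferating and 2134, 2368 and 2240 in serum-reduced ones. Lipid-loaded libraries did not overlap proliferating ones for setd2, nor did starved ones for apex1, whereas serum-reduced libraries did for apex1.

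A further 14 named members did not fall into these classes. Si:dkey-251i10.1 had one of the 3 smallest SDs between replicates, 0.047, with group means from 41408 in p27 lipid loading to 55030 in Mack2 p180. Dnaja2b, a co-chaperone of Hsp70, had 0.39, and capns1a, the small calpain subunit, had 0.40. Atp2a2b, a calcium pump of the SERCA family, had 0.41. The other 16 members carry a locus number alone, and no role can be given to them. LOC133994160 and LOC134003208 held ranks 4 and 5 at 0.25 and 0.26, and LOC133977312 had the smallest SD of the members, 0.043.

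**Figure D3:**
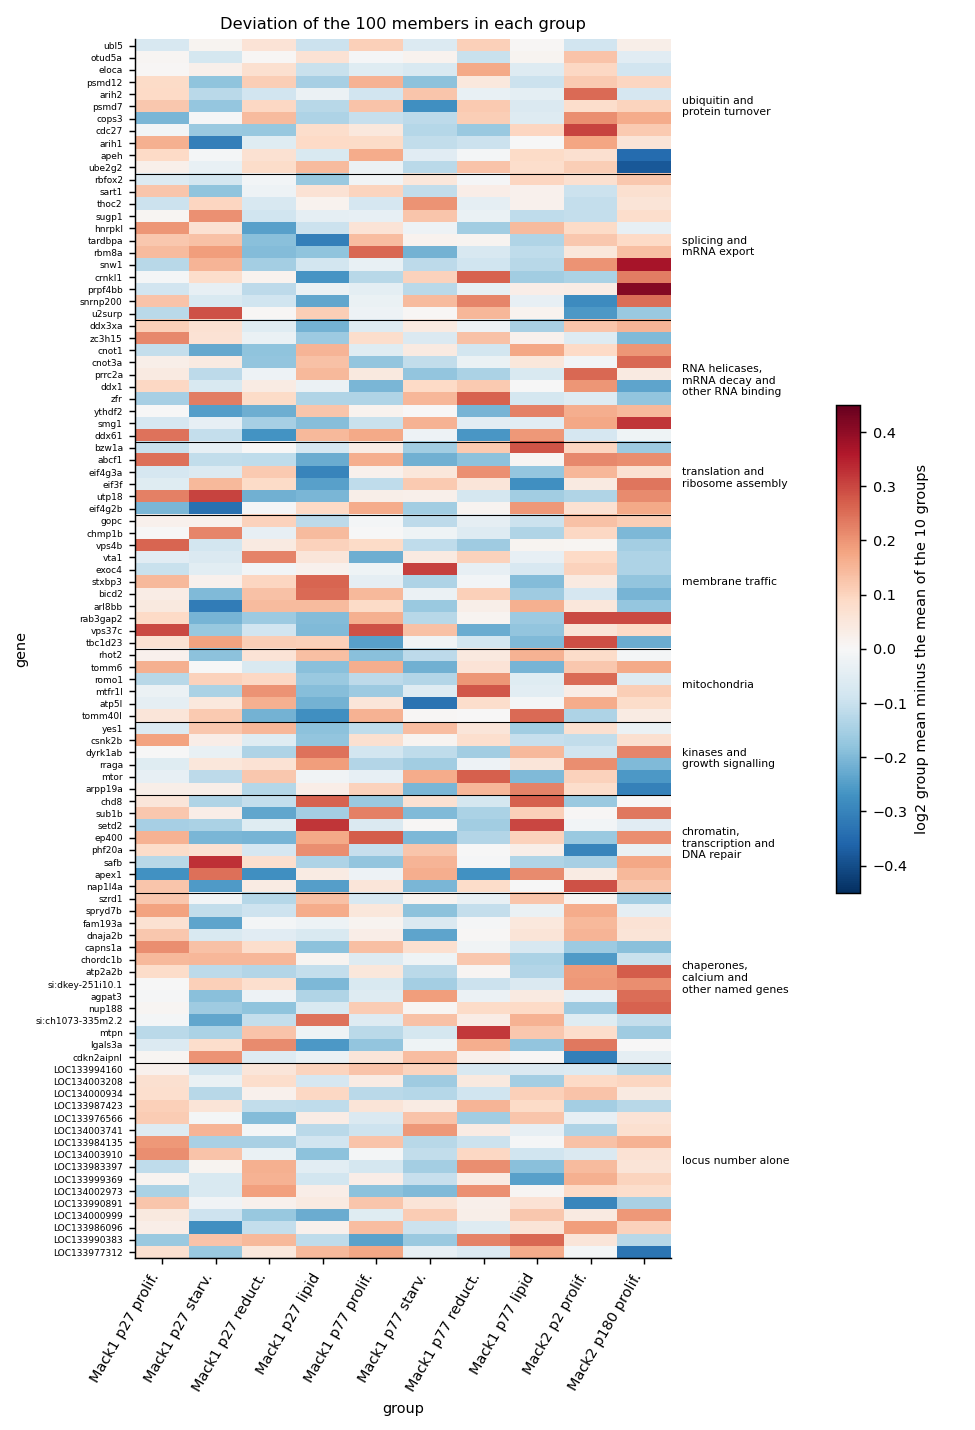
Each row is a member, grouped by role, and each column a group; colour gives the log2 group mean minus the mean of the 10 groups, from blue (low) through white to red (high). Deviations stay between -0.38 (Mack2 p180) and 0.41 (Mack2 p180), and no column is of one colour throughout.

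Several members are one copy of a gene pair kept from the duplication of fish genomes, and the other copy was less steady. Atp2a2b had a range of 0.41 and atp2a2a 2.81. Lgals3a, a galectin, had 0.49 and lgals3b 2.75. Arl8bb, a lysosomal GTPase, had 0.48 and arl8ba 1.80, while tardbpa had 0.45 and tardbpb 1.33. The gaps were smaller for dnaja2b at 0.39 and dnaja2a at 0.95, and for eif4g2b at 0.53 and eif4g2a at 0.74. Copies of near-identical sequence can share reads, and the sources used here do not say how such reads were assigned. Being the steadier copy follows from the choice of members and is no separate finding. Chmp1b and rraga, and likewise csnk2b and prrc2a, lie next to each other with 0 genes between them in RefSeq's table for assembly fScoSco1.1.

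None of the customary reference genes was a member, beside 4.75% of all genes ranked. Of 31 measured, 24 passed the minimum in every group, and their median range was 1.17, close to the 1.19 of all genes ranked. Rpl32 was the steadiest at rank 501 with a range of 0.86, followed by rpl4 at 0.90 and pgk1 at 0.93. Rps18 had 0.99, ubb 1.11, sdha 1.16 and rpl13a 1.18. At the other end were gapdhs with 1.67, hprt1 with 2.00, actb2 with 2.34, tubb5 with 2.52 and actb1 with 3.88.

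Actb2, a cytoplasmic actin, had 345682, 359062 and 328001 in proliferating p27 libraries, 116049, 101089 and 109748 in starved, 143945, 120003 and 128713 in serum-reduced, and 328784, 348970 and 340522 in lipid-loaded ones. Serum-reduced p77 libraries had 71043, 72602 and 73909. Starved and serum-reduced libraries thus lay below the proliferating and lipid-loaded ones at p27 without overlap, and the span between group means over the 10 groups was 5.07-fold. Gapdhs, the glycolytic enzyme, had 57799, 58277 and 56528 in proliferating p27 libraries and 17503, 18084 and 18794 in serum-reduced p77 libraries, with no overlap. The gene with the symbol gapdh fell under the minimum, with group means from 13.4 to 62996. Lipid-loaded p27 cells were the lowest group for 16 of the 24 ranked, or 66.7%, beside 21.3% of all genes ranked. Of the 16, 14 are ribosomal protein genes and the others are sdha and hprt1, so the count rests mainly on a single gene family.

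Scaling by the members leaves the deposited values nearly as they are. The mean log2 count of the 100 members, centred over libraries, spanned 0.11 over the 32 libraries, a 1.08-fold difference between the lowest (starved Mack1 p77 replicate 1) and the highest (Mack2 p2 replicate 4). For the first 20 members it spanned 0.099, and for the first 10 it spanned 0.13. For single customary genes the span over libraries was 1.06 for rpl4, 1.12 for rps18, 1.32 for rpl13a, 1.74 for gapdhs, 2.42 for actb2 and 3.99 for actb1. Averaging over 100 genes itself narrows a span, so the mean and the single genes are not compared like for like. Taken singly, the members had a median range over libraries of 0.64 and a widest of 1.77. The deposited values already carry a library scaling, and the members were ranked on them, so the small span is part of how they were chosen. With another library scaling or pseudocount, the span of the 100 members was 0.11 to 0.17.

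**Figure D4:**
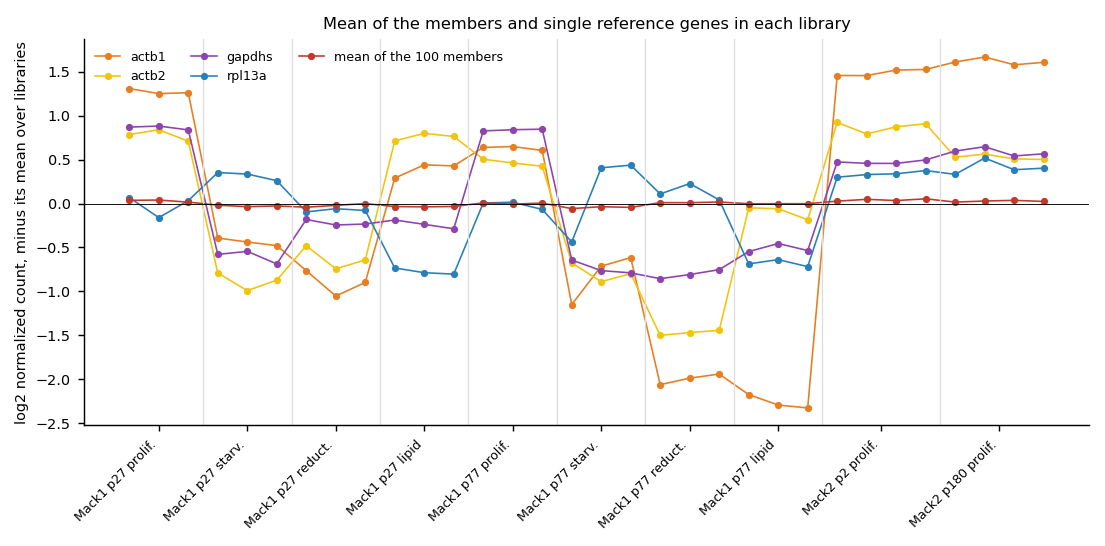
Log2 normalised count of 4 customary reference genes, and the mean log2 count of the 100 members (red), minus the mean over libraries (vertical axis), in each of 32 libraries by group (horizontal axis). The red line stays between -0.058 and 0.054, whereas actb1 runs from -2.32 to 1.67. The red line is a mean of 100 genes and the others are single genes, so their spans are not compared like for like.

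The spread between replicates was not used by the rule. The pooled SD of the members on the log2 scale had a median of 0.0933, between 0.043 and 0.29, and that of the other 2006 genes ranked had a median of 0.0929. These medians were alike, although the median counting error was larger for the members, at 0.033 against 0.025 for the others. No relation between steady group means and spread inside groups is read from them. Without the library that stood apart, the median SD was 0.073 for the members and 0.075 for all genes ranked. By group, the median SD of the members was 0.050 to 0.073 in 9 groups and 0.16 in starved Mack1 p77 cells. The range over all 32 libraries, which joins both kinds of variation, had a median of 0.64 for the members and 1.43 for the other genes. Without that library the members' median was 0.58, and their widest range fell from 1.77 to 0.87.

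**Figure D5:**
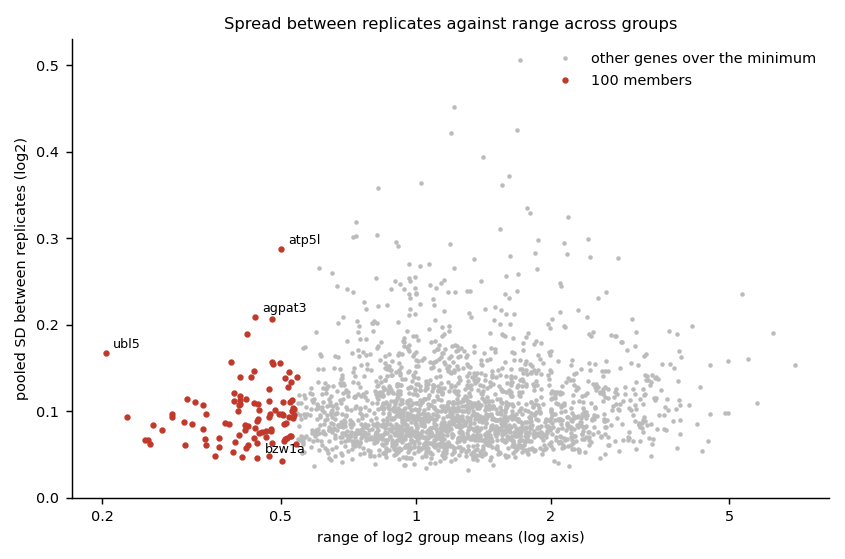
Pooled SD of log2 normalised counts between replicates (vertical axis) against the range of log2 group means (horizontal axis, log scale) for the members (red) and the other genes ranked (grey). The members fill the left side by choice, and their SDs lie at the same height as those of the other genes, with atp5l at 0.29 and bzw1a at 0.045.

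No single group carried the members' extremes. Mack2 p2 was the highest group for 19 members (15.8% of the genes ranked), Mack2 p180 for 18 (17.5%) and proliferating p27 cells for 13 (14.7%). Lipid-loaded p27 cells were the lowest group for 19 members (21.3% of the genes ranked) and Mack2 p180 for 17 (11.3%). Serum-reduced p27 cells were lowest for 13 (3.94%) and starved p27 cells for 13 (9.31%). A Mack2 group was the highest for 37 members (33.3%) and the lowest for 27 (17.9%). One extreme lay in each line for 58 members (48.5% of the genes ranked), both lay in Mack1 for 39 (50.2%) and both in Mack2 for 3 (1.33%). Both Mack2 groups were above all 8 Mack1 groups for 12 members, beside 12.5% of the genes ranked. Proliferating Mack1 cells of either stage were highest, with a confluent Mack1 state lowest, for 15 members, beside 22.9% of the genes ranked.

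Steady does not mean that no difference passed a test at this depth. In edgeR's quasi-likelihood test, with adjustment over all genes and a threshold of 0.05, 34 members met the threshold in starved against proliferating Mack1 p27 cells, 9 higher and 25 lower, where 64.3% of all genes tested did. For serum reduction at p27 it was 40 members, 6 higher and 34 lower (61.7% of all genes), and for lipid loading 37, 3 higher and 34 lower (64.8%). At p77 the counts were 39 for starvation, 13 higher and 26 lower (66.9%), 36 for reduction, 15 higher and 21 lower (68.8%), and 26 for lipid loading, 8 higher and 18 lower (65.7%). In a fit of the compared groups alone, starvation at p77 gave 15 members in place of 39. With RLE scaling the split became 10 and 27 for reduction at p27, 16 and 15 for reduction at p77, and 11 and 15 for lipid loading at p77. Without starved p77 replicate 1 the counts were 45 for starvation, 52 for reduction and 47 for lipid loading at p27. At p77 they were then 40 for reduction and 36 for lipid loading, and the cause was not tested. The share of all genes under these other settings is not given, so nothing about the members is read from these changes. Each of the contrasts at one stage shares its proliferating libraries with the others. Of the 2006 other genes ranked, 73.7% to 80.3% met the threshold in these 6 contrasts. The rule used these group means, so nothing is read from the lower counts of members.

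The sizes were small, but the rule chose the members for small differences between these same group means. The median absolute log2 difference of the members was 0.13 to 0.17 in these 6 contrasts, against 0.70 to 0.90 over all genes tested. The genes tested include many under the minimum mean that the rule set. The value for the other genes ranked is not given, and nothing is read from the gap. The largest fall was that of ddx61 in serum-reduced p27 cells, by 0.56, and the largest rise that of apex1 in starved p27 cells, 0.52.

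Between p77 and p27, 8 members met the threshold in proliferation (25.6% of all genes), 6 in starvation (21.3%), 8 on reduced serum (30.9%) and 14 under lipid loading (34.3%). Of the 2006 other genes ranked, 30.26% to 49.15% met it in these contrasts. Starved p77 replicate 1 is among the libraries compared in starvation alone. Without it the counts of members became 15, 3, 14 and 24, and the cause was not tested. Leaving out other single libraries moved them as far as 2 in proliferation (without p77 proliferation replicate 2), 23 in starvation (without p77 starvation replicate 2), 3 in reduction (without p27 reduction replicate 2) and 9 in lipid loading (without p77 lipid loading replicate 1 or 3). In proliferation 2 members were higher and 6 lower, and in starvation 1 and 5; with RLE scaling these splits became 2 and 2, and 4 and 3. On reduced serum 7 were higher and 1 lower, and under lipid loading 9 and 5. Tomm40l, of the mitochondrial import family, had 2266, 2411 and 2537 in lipid-loaded p77 cells and 1488, 1694 and 1811 in lipid-loaded p27 cells. Stxbp3, a regulator of vesicle fusion, went the other way, with 1210, 1120 and 1126 against 1647, 1601 and 1492.

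In Mack2, 64 members met the threshold between p180 and p2, beside 77.7% of all genes tested and 85.6% of the 2006 other genes ranked. Of the 64 members, 39 were higher and 25 lower. With RLE scaling the split was 34 and 29. The replicates of Mack2 were tighter, with a common biological coefficient of variation of 0.058 against 0.14 in Mack1, and the members' median absolute difference was 0.15. The Mack1 value includes the library that stood apart, and none without it is given. The members' median SD between replicates was 0.158 in starved p77 cells and 0.061 to 0.073 in the other Mack1 groups. It was 0.052 in Mack2 p2 and 0.050 in Mack2 p180. A joint test for any difference among the 8 Mack1 groups was met by 85 members. It was met by 90.7% of all genes and by 98.95% of the 2006 other genes ranked. Without starved p77 replicate 1 the joint test was met by 90 members, with no share of all genes given. Otud5a and atp5l met the threshold in none of the 12 tests, which compare the group means that chose them; atp5l also has the largest SD of the 100.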

How the data were processed

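Per the labels' protocols, poly(A) RNA was sequenced as 150 nt pairs without strand information. Among the tools in the submitters' processing notes are Salmon 1.10.1, STAR, FastQC and DESeq2, with no role stated. The genome build, the annotation and the treatment of reads shared by similar genes are not stated in these sources. The authors deposited raw counts per gene and, in a second table, a normalised signal, whose values equal raw counts over a library-wide size factor of 0.621 to 1.34. Names come from the RefSeq gene table of fScoSco1.1, which matched all 24189 genes, 14498 with a symbol.

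Group means, ranges, SDs and ranks were computed from the normalised signal with a pseudocount of 1; values of different genes are not scaled for length and are not compared. The pooled SD joins the within-group variances of the 10 groups. Raw counts were tested with edgeR 4.0.16 in R 4.3.3 (filterByExpr, TMM, glmQLFit, two-sided glmQLFTest, Benjamini-Hochberg adjustment, threshold 0.05), in one fit of the 24 Mack1 libraries (15683 genes) and one of the 8 Mack2 libraries (13805 genes). The procedure was tested on simulated data, the outcome of which is not given here. DESeq2 1.42.0, limma 3.58.1 and other settings served as alternatives. Replicate numbers did not pair the libraries. Members, gene lists, roles and the choice of genes named were set with earlier results of these data known. Named genes are ranks 1 to 20, the genes beside the cut, extremes of level, SD and fold change, the customary reference genes and up to 4 members of each list; genes given as examples of the role classes, gene copies and genes with an extreme in the held-out libraries were added after their values were seen. A planned search of promoters was not run, since sequences were not used here. Plots used matplotlib 3.10.9.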

Additional observations from a re-analysis of the deposited data

Results flagged for a closer look

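In the groups of 4 libraries, 132 sets of values were examined for a value far from the other 3. They were values of named members and of the mean of all members. Chance gives such a value in about 1 of 20, and 10 were found, all in named members. In Mack2 p2, ubl5 had 1188 in replicate 3 and otud5a 1356 in replicate 4, nap1l4a 8293 in replicate 2 and apex1 2883 in replicate 3, each outside a narrow band of the others. In the same group cops3 was at 1236 in replicate 2, exoc4, a subunit of the exocyst, at 1237 in replicate 1 and mtor at 1681 in replicate 1, all below the others. In Mack2 p180, replicate 4 was lowest for sugp1 at 1165, for cnot3a at 1366 and for exoc4 at 1137.

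Of 195 pairs of Mack1 contrasts of named members, 8 moved in opposite directions at p27 and p77 with libraries that did not overlap proliferation, or 4.10%, beside 4.02% of 6318 such pairs over all genes ranked; the difference was not tested. In serum reduction, snrnp200 changed by -0.22 on the log2 scale at p27 and 0.25 at p77, a difference (p27 minus p77) of -0.47. The same difference was -0.355 for cnot3a, -0.31 for LOC133987423, -0.30 for zc3h15, 0.35 for eif4g2b and 0.23 for LOC133994160. In lipid loading LOC134000999 had -0.45, and in starvation si:dkey-251i10.1 had 0.19.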

How the results depend on the processing

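Ranking by TMM-scaled CPM kept 87 of the 100 members, group medians 86, the SD of group means 85 and the range over libraries 69. Unscaled CPM kept 60, and a minimum mean of 100, 500 or 2000 in place of 1000 kept 40, 55 and 39. Ranking over the 8 Mack1 groups kept 57, over the 4 proliferating groups 22, and taking the first 50 left 50. With single libraries or replicate numbers left out, 81 to 99 were kept, and 52 members, 18 of the first 20, stayed in the list under TMM scaling, SD, library range, medians and without each replicate number. With replicate numbers or starved p77 replicate 1 left out, the members' median range was 0.44 to 0.47 and their median SD 0.070 to 0.095. The span of their mean was then 0.098 to 0.11. With TMM-scaled CPM or another pseudocount, the median range was 0.44 to 0.45 and the median SD 0.090 to 0.093. The span of the mean was 0.11 to 0.17 there. The minimum sets which genes can enter: 254 genes with a mean of at least 100 but under 1000 in some group had a smaller range than the last member.

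Counts of members past the threshold moved with the settings for the smaller contrasts. They stand here without the share of all genes, so nothing about the members is read from the moves. For p77 against p27 in proliferation (8) they were 4 with RLE scaling, 3 with no low-count filter and 16 in a fit of the compared groups alone; in starvation (6) they were 12 with DESeq2 and 0 in edgeR's fit of the compared groups, where 3 had an unadjusted p under 0.05; in reduction (8) 4 with no low-count filter. Starvation against proliferation at p77 gave 15 in the fit of the compared groups, in place of 39. Leaving out each library gave 26 to 45, 29 to 52 and 33 to 47 for starvation, reduction and lipid loading at p27, 29 to 39, 24 to 40 and 21 to 36 at p77, 2 to 15, 3 to 23, 3 to 14 and 9 to 24 for p77 against p27, 77 to 90 for the joint test and 60 to 67 for Mack2. Leaving out starved p77 replicate 1 gave the highest count for every p27 contrast with proliferation and for the joint test. It also did so for reduction and lipid loading at p77. Without this library the p77 against p27 counts were 15, 3, 14 and 24. A library of the groups compared, or of another Mack1 group, moved those 4 counts by over 1.5 times in 28 cases; the cause was not tested. In no comparison did same-numbered libraries deviate together in every pair; with the replicate block the members past the threshold were 32, 40 and 37 at p27, 38, 33 and 26 at p77, 7, 5, 7 and 13 for p77 against p27, 82 in the joint test and 66 in Mack2.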
